A study of Mus musculus and Homo sapiens with 10 samples.

Results

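Histone acetylation was described across 2 imprinted domains of mouse embryonic stem cells, the H19-Igf2 domain on chromosome 7 and the Dlk1-Meg3 domain on chromosome 12. The members were all islands, that is stretches called as enriched over background, that overlapped the mm9 windows chr7:149730000-149870000 (140 kb) or chr12:110670000-110830000 (160 kb). There were 42 such islands of 272566 in the 3 mouse lists: 16 in the H19-Igf2 window and 26 in the Dlk1-Meg3 window. The windows were set by position and not by any measured value. The cells were 46c, an embryonic stem cell line with a green fluorescent reporter at Sox1, grown undifferentiated with Lif and serum and without feeder cells, at passages 25 to 28. Each of H3K122ac, H3K64ac and H3K27ac was immunoprecipitated from chromatin cut with micrococcal nuclease, in 2 replicates per mark. The authors merged the replicates before calling, so each mark gave 1 value per island and no spread between cultures could be measured. All 3 groups shared the cell line, its reporter and the culture, and none was treated.

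Imprinted genes are expressed from only the maternal or only the paternal copy, under the control of differentially methylated regions. H19 is a maternally expressed long noncoding RNA, and Igf2, its neighbour, is a paternally expressed growth factor of the fetus. A methylation-sensitive control region near H19, bound by CTCF on the maternal copy, decides which of them reaches shared enhancers. In the other domain Dlk1, a paternally expressed transmembrane protein related to the Notch ligands, neighbours Meg3, a maternally expressed long noncoding RNA, with a control region between them. Acetylation of H3K27, on the histone tail, is commonly found at active promoters and enhancers, while K122 and K64 lie in the globular domain, where the histone core meets DNA. The lists do not separate the parental copies, so each value is for both copies together.

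No gene positions in mm9 were used here, so no island is assigned to a gene, a promoter or a control region, and no gene has a value of its own. For the same reason the labelled cell type was not checked against marker genes. For order alone, the RefSeq table of another build (GRCm38.p6) was read. There, going up the chromosome, H19 with Mir675 follows Nctc1, and Igf2 follows H19 and precedes Ins2. On chromosome 12 the order was Begain, Dlk1, Meg3 with Mir770, Rtl1 and Rian.

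The starts of 3 of the 4 genes could be matched in the RefSeq promoter table of GRCm38.p6 (H19 was not matched). Each entry runs from 250 bases before to 50 bases after a start. These 3 are shown because the windows are named for their genes, 1 start per gene, that of highest CG count where a gene had several. Capitals mark each CG dinucleotide, the kind of site at which DNA is methylated. No control region was located, and whether these sequences meet a differentially methylated region was not examined. Positions are in GRCm38.p6 and cannot be set against the mm9 islands. Meg3 is chr12:109540746-109541045 (plus strand), Dlk1 chr12:109452573-109452872 (plus strand) and Igf2 chr7:142658755-142659054 (minus strand).
Meg3: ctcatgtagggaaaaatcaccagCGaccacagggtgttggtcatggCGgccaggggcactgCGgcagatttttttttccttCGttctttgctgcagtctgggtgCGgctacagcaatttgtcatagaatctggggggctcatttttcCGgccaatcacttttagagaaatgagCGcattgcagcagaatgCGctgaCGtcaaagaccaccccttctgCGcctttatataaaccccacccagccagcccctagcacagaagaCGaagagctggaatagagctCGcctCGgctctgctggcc
Dlk1: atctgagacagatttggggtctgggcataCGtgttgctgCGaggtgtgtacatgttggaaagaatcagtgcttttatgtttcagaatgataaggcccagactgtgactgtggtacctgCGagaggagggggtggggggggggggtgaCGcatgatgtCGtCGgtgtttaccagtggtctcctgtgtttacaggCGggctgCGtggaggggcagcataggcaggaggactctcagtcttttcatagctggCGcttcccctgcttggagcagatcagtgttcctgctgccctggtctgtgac
Igf2: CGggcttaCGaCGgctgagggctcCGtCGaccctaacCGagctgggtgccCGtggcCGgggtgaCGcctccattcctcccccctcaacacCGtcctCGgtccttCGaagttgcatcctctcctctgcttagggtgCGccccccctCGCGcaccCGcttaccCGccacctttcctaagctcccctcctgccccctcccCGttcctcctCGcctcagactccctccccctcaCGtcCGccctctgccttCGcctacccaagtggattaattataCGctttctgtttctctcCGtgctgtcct

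The Igf2 start shown held 24 CG dinucleotides, more than 80.0% of the 32851 promoter entries of the same length, whose median was 7. The other Igf2 starts held 14, 7 and 2. The Meg3 start shown held 13, more than 62.1% of entries, against 1 at the other Meg3 start, and the Dlk1 start held 9, more than 54.2%. Of 3 motifs searched on both strands, TATAAA was matched in the Meg3 sequence only, at overlapping places on each strand, and is held by 13.6% of all entries. TGACGTCA, which reads the same on both strands, also occurred there once, and 1.79% of entries hold it. GGGCGG was matched once in the Igf2 sequence shown, and 35.7% of entries hold it. These matches describe letters in a window and were not tied to any island.

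Per list, the whole mouse data held 44320255 reads inside H3K122ac islands, 38692934 inside H3K64ac islands and 40473895 inside H3K27ac islands. The fold over background of an island is its ChIP read count over its background read count, divided by 1 library ratio per list. These ratios were 0.913, 1.08 and 2.19 in the same order of marks. The folds are the authors', and the background library was shared by the 3 lists: wherever 2 lists had islands with identical ends, the background count was the same (5372 of 5372 islands for H3K122ac and H3K64ac, for example). Because of that, a low or high background count moves the folds of all 3 marks together. Intervals given with folds are exact binomial 95% intervals from the ChIP and background counts and cover counting error only.

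The H19-Igf2 window carried islands whose pooled fold was low for each of the 3 marks. H3K122ac gave 9 islands covering 16.6% of the window, H3K64ac 4 islands covering 7.43%, and H3K27ac 3 islands covering 5.57%. Summed over islands, 3351 H3K122ac reads stood over 1630 background reads, a pooled fold of 2.25 (2.12 to 2.39), where the whole list pooled to 3.36. H3K64ac had 1372 reads over 723, a pooled fold of 1.75 (1.60 to 1.92) against 2.93 for its list. H3K27ac had 1622 reads over 608, a pooled fold of 1.22 (1.11 to 1.34) against 1.50. For each mark the interval, which leaves out the spread between islands, lay below the value of its list.

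Pooled over reads, the Dlk1-Meg3 window had the higher folds. H3K122ac gave 10 islands covering 20.4% of the window, with 6863 reads over 2033 background reads and a pooled fold of 3.70 (3.52 to 3.89). H3K64ac gave 5 islands covering 15% of it, with 6179 reads over 1421 and a pooled fold of 4.02 (3.79 to 4.26). H3K27ac gave 11 islands covering 8.88%, with 3038 reads over 913 and a pooled fold of 1.52 (1.41 to 1.64), an interval that includes the 1.50 of its list. The counting intervals of the 2 windows did not overlap for any of the 3 marks, but they leave out the spread between islands. In the H19-Igf2 window, for example, H3K122ac folds ran from 1.22 to 6.55. The median island told less of H3K122ac: its fold was 2.43 in the Dlk1-Meg3 window and 2.31 in the H19-Igf2 window, against 2.78 and 1.66 for H3K64ac and 1.46 and 1.21 for H3K27ac. Background density was higher in the H19-Igf2 islands of each mark. For H3K122ac it was 70.3 reads per kb against 62.4 in the Dlk1-Meg3 islands, beside ChIP densities of 144.4 and 210.5. For H3K64ac background was 69.5 against 59.2, beside ChIP densities of 131.9 and 257.5. H3K27ac differed from these: its ChIP density was nearly level, at 207.9 and 213.9 reads per kb, while background was 77.9 against 64.3, so its gap in fold lay mainly in the background counts. With 1 merged list per mark, no test across cultures was possible.

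**Figure D1:**
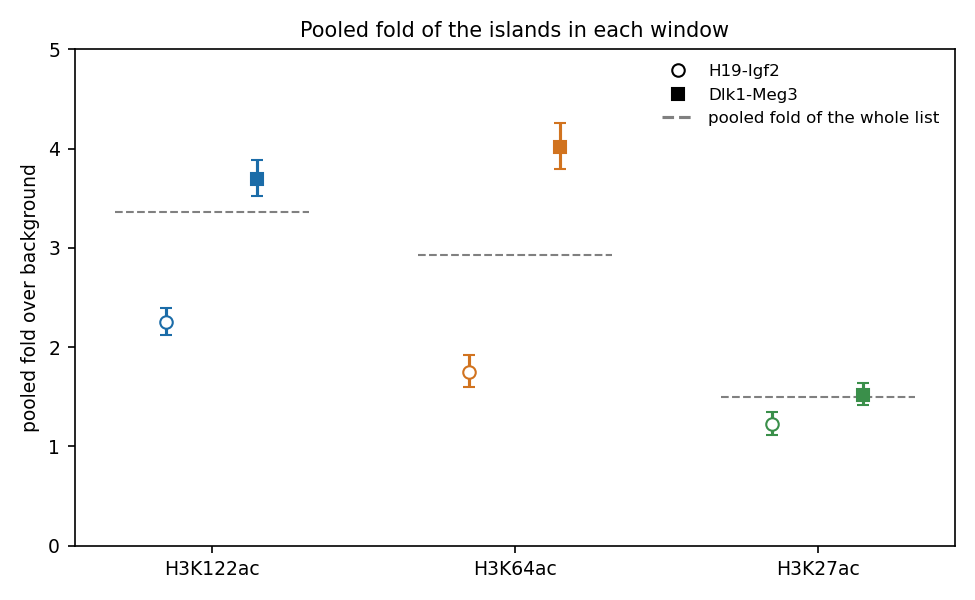
Pooled fold over background (summed ChIP reads over summed background reads, divided by the library ratio; no unit) of the islands in the H19-Igf2 window (open circles) and the Dlk1-Meg3 window (filled squares) for each mark. Bars are 95% binomial intervals for counting error and dashed lines the pooled fold of each whole list; H3K64ac is farthest apart, at 1.75 and 4.02.

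Bins of the same length, laid end to end along the numbered chromosomes and X, give a scale for these values. The H19-Igf2 window had more of its length covered by H3K122ac than 81.4% of 18833 bins of 140 kb, whose median cover was 4.57%. Its pooled H3K122ac fold was nevertheless higher than in only 9.91% of the 16131 bins that held an island. Its H3K64ac fold exceeded 7.53% of such bins and its H3K27ac fold 1.67%. The Dlk1-Meg3 window had more H3K122ac cover than 86.2% of 16480 bins of 160 kb and more H3K64ac cover than 81.9%. There the pooled fold of H3K64ac exceeded that of 73.8% of bins, that of H3K122ac 54.7% and that of H3K27ac 46.0%. Wide H3K122ac cover thus came with low enrichment in the first window and with middle to higher enrichment in the second.

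Strong islands lay mostly in the Dlk1-Meg3 window. A fold of 3 or more was reached by 5 of the 19 H3K122ac islands, where 46.3% of the whole list reached it. By window these were 1 of 9 for H19-Igf2 and 4 of 10 for Dlk1-Meg3. The same fold was reached by 2 of the 9 H3K64ac islands (36.2% of the list), 0 of 4 and 2 of 5 by window. It was reached by 0 of the 14 H3K27ac islands, but only 4.44% of that list reached it, so 14 islands are too few to show a shortfall. A stricter q-value of 1e-10 or less, as given by the authors' caller, was met by 14 of 19, 8 of 9 and 5 of 14 islands, against 80.4%, 81.6% and 38.7% of the lists. With both windows together, none of these shares lay above its list except the H3K64ac share at the stricter q-value, which rests on 9 islands. By window, the H3K64ac share at a fold of 3 in Dlk1-Meg3, 2 of 5, also lay above the 36.2% of its list.

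**Figure D2:**
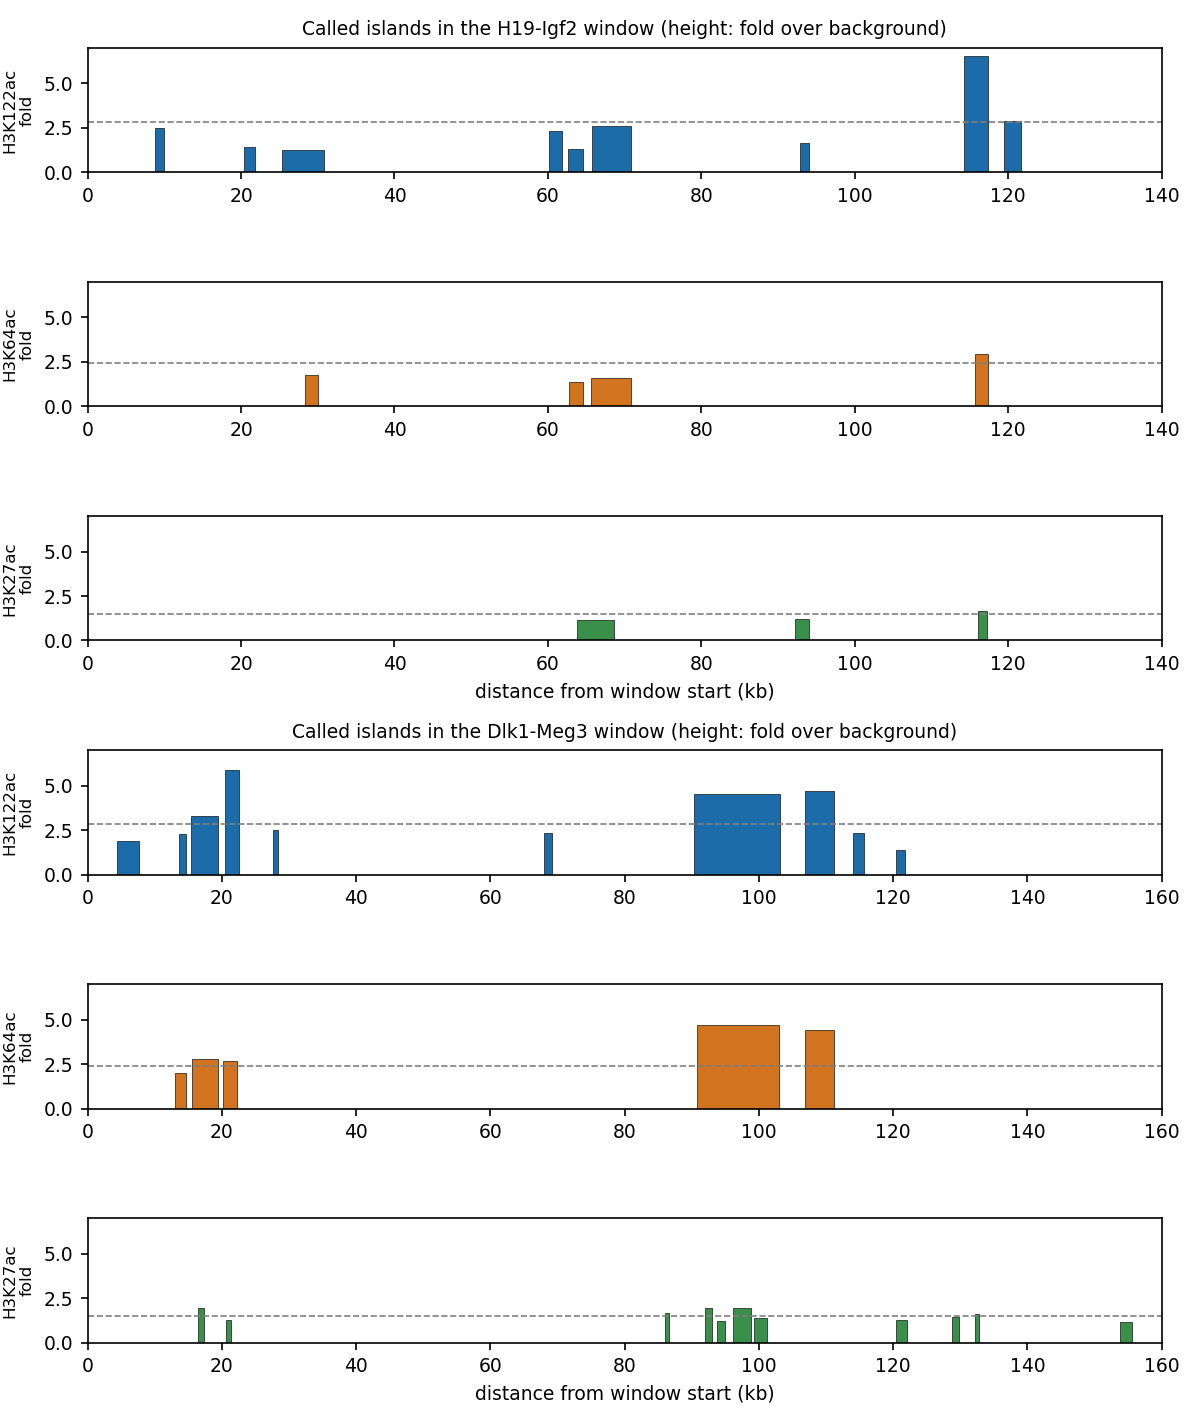
Islands of the 3 marks along each window: x is the distance from the window start in kb, bar width the island's length, bar height its fold over background, and the dashed line the median fold of the list. The 2 tallest H3K122ac bars reach 6.55 and 5.90, and the broad islands that start 90.4 kb and 106.8 kb into the Dlk1-Meg3 window are seen for H3K122ac and H3K64ac, the first only in part and the second not at all for H3K27ac.

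The strongest island of the H19-Igf2 window was at chr7:149844201-149847400 (mm9), on the higher-coordinate side of the window. H3K122ac had 760 reads there over 127 background reads in 3200 bp, a fold of 6.55 (5.42 to 7.97), which exceeded 89.3% of the list. Background was low at 39.7 reads per kb, against a list median of 61.9. Inside it, H3K64ac covered chr7:149845601-149847400 with 306 reads over 96, a fold of 2.95 (2.33 to 3.74). H3K27ac covered chr7:149846001-149847200 with 264 reads over 74, a fold of 1.63 (1.26 to 2.14). These were the highest folds of the window for all 3 marks. Background in the H3K64ac island was 53.3 reads per kb against a list median of 58.3, and in the H3K27ac island 61.7 against 60.0. The part of the background counts in these folds was not tested. Next to the strongest island, chr7:149849401-149851600 carried H3K122ac alone, with 322 reads over 123 and a fold of 2.87 (2.32 to 3.56). Among H3K27ac islands with a background count within 10% of this one, anywhere in the list, folds down to 1.16 were called, and among such H3K64ac islands down to 1.20.

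The middle of the same window held its widest acetylation, over chr7:149792601-149800800. H3K122ac gave an island of 5000 bp, chr7:149795801-149800800, with 865 reads over 368 and a fold of 2.57 (2.28 to 2.92), close to the middle of its list at 43.9%. The H3K64ac island chr7:149795601-149800800 had nearly the same ends but 663 reads over 386, a fold of 1.59 (1.40 to 1.80), above only 19.3% of its list. H3K27ac spanned chr7:149793801-149798600, longer than 95.9% of its list at 4800 bp, and its fold was 1.15 (1.02 to 1.29), from 992 reads over 396. Over the list, the median H3K27ac fold was 1.37 for islands near 123 background reads and 1.28 for islands near 458. A smaller pair just before the H3K122ac and H3K64ac islands, chr7:149792601-149794600 for H3K122ac and chr7:149792801-149794600 for H3K64ac, had folds of 1.32 and 1.35. The H3K122ac island at chr7:149790201-149791800, 800 bp away from this segment, carried no other mark and had a fold of 2.31, from 270 reads over 128.

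The lower-coordinate end of the H19-Igf2 window held the H3K122ac island of lowest fold. This longest H3K122ac island of the window, chr7:149755401-149760800, had 512 reads over 458. Among islands of all lengths in the list, its fold of 1.22 (1.08 to 1.39) exceeded only 0.590%. H3K64ac covered 1600 bp of it, chr7:149758401-149760000, with 228 reads over 121 and a fold of 1.74 (1.39 to 2.19). No H3K27ac island lay within 26800 bp of it. The H3K122ac islands at chr7:149738801-149740000 and chr7:149750401-149751800 met no other mark, with folds of 2.48 and 1.43. At chr7:149822201-149824000, H3K27ac (366 reads over 138, fold 1.21) and H3K122ac (135 reads over 90, fold 1.64) met without H3K64ac.

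The Dlk1-Meg3 window held 1 broad domain, with more reads than any other segment for each mark. The H3K122ac island chr12:110760401-110773200 was 12800 bp long, longer than 99.1% of its list, with 3288 reads over 799 and a fold of 4.51 (4.17 to 4.88). H3K64ac covered nearly the same stretch, chr12:110760801-110773000, with 3836 reads over 754 and a fold of 4.70 (4.35 to 5.09), above 84.7% of its list. H3K27ac was broken there into 4 islands, which together covered 6800 bp. The widest, chr12:110766201-110768800, had 668 reads over 158 and a fold of 1.93 (1.62 to 2.32). The strongest, chr12:110762001-110763000, had 190 reads over 44 and a fold of 1.98 (1.42 to 2.81), above 81.4% of the list. The islands chr12:110763801-110765000 and chr12:110769201-110771200 had folds of 1.23 and 1.40. H3K27ac islands were called with a gap of 200 bp and the other marks with 600 bp, so the caller's setting may enter the break-up. Joining the called H3K27ac islands across 600 bp merged only the last of these 4 with the one before it, for 10 islands in the window in place of 11. That is not a new call with a gap of 600 bp, so the part of the setting was not tested.

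A neighbouring island carried both globular-domain marks without H3K27ac. At chr12:110776801-110781200 the H3K122ac and H3K64ac islands had identical ends and were 4400 bp long. H3K122ac had 1037 reads and H3K64ac 1164 reads over the same 243 background reads, giving folds of 4.67 (4.06 to 5.40) and 4.43 (3.85 to 5.10). After scaling to the library ratios, H3K122ac stood at 1.06 times H3K64ac (0.970 to 1.15), an interval that includes equality. The nearest H3K27ac island was 5600 bp away. H3K27ac islands of similar background count elsewhere in the list were called at folds as low as 1.11, with a median of 1.31 over 3761 islands. The lists give no H3K27ac reads outside islands, so the level there is not known, only that none was called. H3K122ac islands that met H3K64ac and not H3K27ac made up 16.1% of the whole list. In the 2 windows they were this one, chr12:110683601-110684600 (fold 2.29, with the lowest H3K64ac fold of its window, 2.04) and the weak island of the H19-Igf2 window at fold 1.22.

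The lower-coordinate part of the Dlk1-Meg3 window held the strongest H3K122ac. At chr12:110690401-110692600 it had 619 reads over 115, a fold of 5.90 (4.82 to 7.26), above 86.2% of its list. H3K64ac at chr12:110690201-110692200 had 254 reads over 88 and a fold of 2.67 (2.09 to 3.44), above 56.4% of its list. H3K27ac at chr12:110690601-110691400 was barely called, with 128 reads over 46, a fold of 1.27 (0.902 to 1.82) and a q-value of 0.00862 where the limit was 0.01. Just before it, chr12:110685401-110689400 carried H3K122ac with 725 reads over 242 and a fold of 3.28 (2.83 to 3.81). The H3K64ac island chr12:110685601-110689400 had a fold of 2.78, and H3K27ac at chr12:110686401-110687400 a fold of 1.95 (1.50 to 2.56), above 80.4% of its list.

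**Figure D3:**
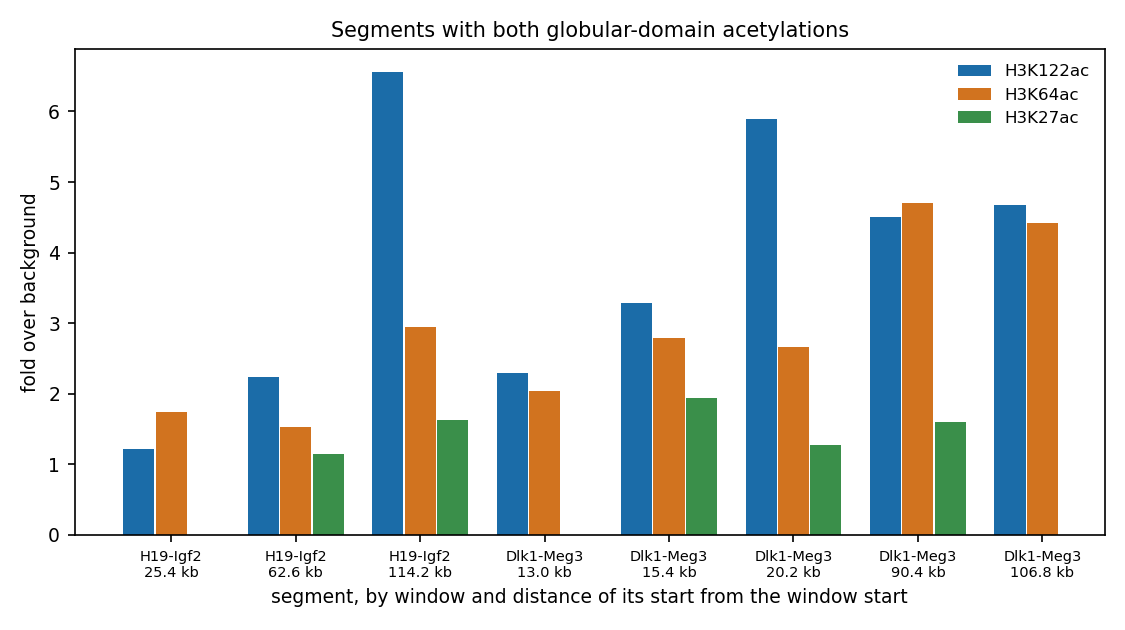
Fold over background (bars from 0) of each mark on the 8 acetylated segments of the windows that carried both H3K122ac and H3K64ac, labelled by window and by the distance of the segment's start from the window start in kb; a segment with several islands of a mark shows their pooled fold, and a missing bar means no island was called. H3K122ac stands at 6.55 against 2.95 for H3K64ac on the segment 114.2 kb into the H19-Igf2 window, and at 4.67 against 4.43 on the last segment.

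The balance of H3K122ac and H3K64ac differed between these places. Over the 56315 H3K122ac islands that met H3K64ac in the whole list, the median ratio of the folds was 1.28. The ratio was 2.23 at chr7:149844201-149847400 and 2.21 at chr12:110690401-110692600, above 91.5% and 91.2% of those islands. Each had the highest H3K122ac fold of its window, and that fold is the numerator, so a high rank is partly built in. By contrast it was 0.959 in the broad domain of the Dlk1-Meg3 window, above 21.3% of them, and 1.06 at chr12:110776801-110781200, above 30.2%. The lowest ratio, 0.703, belonged to the weak island chr7:149755401-149760800, above 5.34%. The islands of the marks did not have the same ends except at chr12:110776801-110781200, so these ratios compare islands that meet and not the same bases.

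Against H3K27ac the same islands had the highest ratios, again with their high H3K122ac folds as numerator. The ratio of H3K122ac to H3K27ac fold was 4.63 at chr12:110690401-110692600 and 4.02 at chr7:149844201-149847400, above 96.6% and 92.3% of the 51659 H3K122ac islands that met H3K27ac, whose median was 2.04. The ratio of 4.63 rests on a barely called H3K27ac island, of fold 1.27 (0.902 to 1.82). That island covered 800 bp of the 2200 bp H3K122ac island. In the broad domain the ratio was 2.82 (above 74.1%). For H3K64ac over H3K27ac, the broad domain reached 2.94, above 90.4% of 41709 islands with a median of 1.71. The ratio of H3K122ac to H3K27ac was lowest at chr12:110790401-110791800, at 1.11 (above 7.86%). Next was chr7:149792601-149794600, at 1.15 (above 9.74%), where the H3K27ac island of 4800 bp shared only 800 bp with the H3K122ac island.

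**Figure D4:**
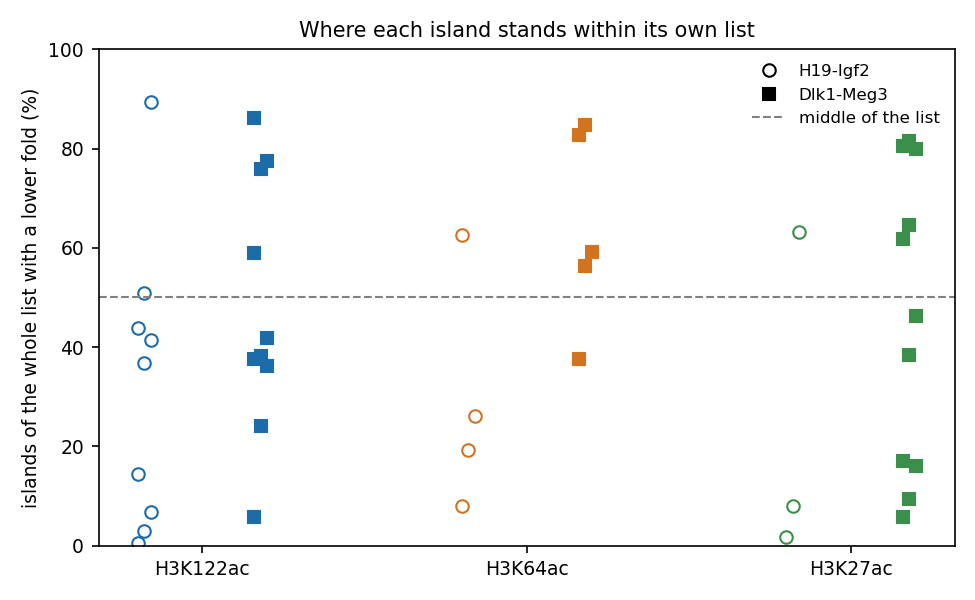
Each point is 1 of the 42 islands; the y axis gives the percent of islands in the whole list of that mark with a lower fold, for the H19-Igf2 window (open circles) and the Dlk1-Meg3 window (filled squares). In the H19-Igf2 window 2 of 9 H3K122ac, 1 of 4 H3K64ac and 1 of 3 H3K27ac points lie above the median fold of their list. In the Dlk1-Meg3 window these are 4 of 10, 4 of 5 and 5 of 11.

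Sharing between marks could not be told apart from that of the whole lists at these numbers of islands. In the H19-Igf2 window 4 of 9 H3K122ac islands met H3K27ac by at least 1 bp (44.4%, exact binomial 95% interval 13.7 to 78.8%) and in the Dlk1-Meg3 window 4 of 10 (40.0%, 12.2 to 73.8%), against 55.6% of the whole list. H3K64ac was met by 4 of 9 and 5 of 10 H3K122ac islands, against 60.6%. All 9 H3K64ac islands of the windows met H3K122ac, as did 93.5% of the list, and 3 of 4 and 3 of 5 met H3K27ac (72.5% of the list). Of the H3K27ac islands, 3 of 3 and 7 of 11 met H3K122ac, against 55.0%, and 2 of 3 and 6 of 11 met H3K64ac, against 50.2%. With so few islands each interval includes the share of its list, and neighbouring islands are not independent.

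The marks were also counted in bases. The same count was not made over the whole lists, so the shares describe these windows only. Breaks between H3K27ac islands, called with a gap of 200 bp against 600 bp, count as bases without H3K27ac. Of the 25000 bp acetylated in the H19-Igf2 window, 47.2% carried H3K122ac alone, 21.6% H3K122ac with H3K64ac, 19.2% all 3 marks and 6.4% H3K27ac alone. In the Dlk1-Meg3 window 37600 bp were acetylated: 38.8% carried H3K122ac with H3K64ac, 22.9% all 3 marks, 21.3% H3K122ac alone and 11.2% H3K27ac alone. H3K64ac alone covered 0 bp in the first window and 800 bp in the second. The longest stretches with all 3 marks were chr7:149795801-149798600 in the first, and chr12:110766201-110768800 and chr12:110769201-110771200 in the second, both inside the broad domain.

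H3K122ac islands without either other mark numbered 4 in each window (8 of 19, against 28.3% of the whole list). They were 800 to 3200 bp long with folds of 1.43 to 2.87. The longest, chr12:110674401-110677600, had 427 reads over 245 and a fold of 1.91 (1.63 to 2.24). H3K27ac islands without either globular-domain mark numbered 4 of 11 in the Dlk1-Meg3 window and 0 of 3 in the other, against 40.1% of the list. Of these, 3 lay at the higher-coordinate end, at chr12:110798801-110799800, chr12:110802201-110802800 and chr12:110823801-110825600, with folds of 1.46, 1.61 and 1.19. The fourth was chr12:110756001-110756600, 3800 bp from the broad domain, with a fold of 1.65. Beyond chr12:110791800 no H3K122ac island was called inside the window. At chr12:110790401-110791800 H3K122ac had its lowest fold of the window, 1.41 (108 reads over 84), and met an H3K27ac island of fold 1.27. For 5 of the 14 H3K27ac islands the counting interval of the fold included 1, against 23.9% of the whole list. This was so for 0 of the 19 H3K122ac and 0 of the 9 H3K64ac islands (2.33% and 2.58% of their lists).

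The nearest islands outside the windows lay at unequal distances. Beyond the end of the H19-Igf2 window the next H3K64ac and H3K27ac islands began 126200 and 125200 bp away, with folds of 1.78 and 1.25. The next H3K122ac island was 30800 bp away (fold 2.23). Before its start an H3K27ac island of fold 1.95 lay 1400 bp away and an H3K64ac island of 8400 bp and fold 2.01 lay 3800 bp away. Around the Dlk1-Meg3 window the nearest H3K27ac island before the start lay 174600 bp away, while H3K122ac (fold 2.18) and H3K64ac (fold 1.39) lay within 6000 bp. After its end H3K122ac began again at 3400 bp with a fold of 2.62.

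By the 3 pooled folds and 3 covers, each scaled to its spread over bins, the bins most like the H19-Igf2 window were chr4:56980001-57120000, chr2:38220001-38360000 and chr11:75740001-75880000, at distances of 0.207, 0.249 and 0.272 where the median bin stood at 2.63. For the Dlk1-Meg3 window they were chr2:51840001-52000000, chr1:9920001-10080000 and chr18:77120001-77280000, at 0.287, 0.339 and 0.358 where the median was 2.30. The likeness is over 6 values only, and the bins were not assigned to genes.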

How the data were processed

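The 3 mouse lists, called by the authors on merged replicates, give for each island whole-number read counts of the ChIP and of a background library, a q-value (a p-value adjusted for multiple tests) and a fold, per the values of the deposited files. Fold is a deposited value, the ChIP count over the background count, divided by a library ratio. The library ratio was recomputed from the deposited values and was constant within each list. The submitters' processing notes name SICER 1.1, Bowtie 0.12.8 and HOMER 4.3, with mm9 as the mouse build. The names of the lists record windows of 200 bp and a false discovery rate of 0.01, with gaps of 600 bp allowed inside H3K122ac and H3K64ac islands but 200 bp inside H3K27ac islands. Not given in the sources used here were the roles of the tools, the identity of the background library and the read totals outside islands.

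Groups came from sample titles, positions are 1-based, and no p-value was computed. Intervals are exact Clopper-Pearson (scipy 1.17.1), with code tested on simulated data. Named islands were, per window and mark, the 3 of highest fold with at least 10 background reads, the 2 longest, the lowest fold, and unshared ones of at least 2000 bp or a fold of at least 3; others were added to account for members. Members and lists were chosen with earlier results of these data known. The 3 K562 lists were not used here. Alternatives were a q-value of at most 1e-10, 50% overlap, windows narrowed by 20 kb at each end, islands wholly inside, H3K27ac joined across 600 bp and the median fold.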

Additional observations from a re-analysis of the deposited data

How the results depend on the processing

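The 20 island counts, pooled folds and shares were recomputed under alternatives, which gave 86 values. In 67 a count stayed within 1.5 times, or a fold or share within its counting interval. For shares this is a weak check, because intervals from so few islands are wide. In the H19-Igf2 window, at 50% overlap, 22.2% of H3K122ac islands met H3K27ac, against 44.4% by at least 1 bp. That share still lay inside its interval of 13.7 to 78.8%. The same share also fell in the Dlk1-Meg3 window. Shares of the whole lists at 50% overlap were not computed, so these falls cannot be read as particular to the windows. The share of H3K27ac islands that met H3K122ac was unchanged at 50% overlap in both windows. Counting only islands wholly inside the windows left every count and fold as it was. No island crossed a window edge, so these values could not move, yet they are counted in the 67. With a q-value of at most 1e-10, the H19-Igf2 window held 5 H3K122ac islands with a pooled fold of 3.19 and 1 H3K27ac island with a fold of 1.63. In the Dlk1-Meg3 window it left 4 H3K27ac islands with a pooled fold of 1.73, and 100% of them met H3K122ac. At that q-value the H3K122ac and H3K27ac folds of the 2 windows stood closer together than in the full lists. Narrowing the Dlk1-Meg3 window by 20 kb at each end raised its pooled folds to 4.12 for H3K122ac and 4.47 for H3K64ac, with 3 H3K64ac islands left. The median of folds was lower there than the pooled value, which weights the broad domain by its reads: 2.43 for H3K122ac and 2.78 for H3K64ac. In the H19-Igf2 window these medians were 2.31 and 1.66, so the windows nearly met for H3K122ac. Leaving out single islands was chosen after seeing the data, and the values it gave are among the 86. Without the island of most ChIP reads, the Dlk1-Meg3 folds were 3.17 for H3K122ac and 3.25 for H3K64ac, where that island also had the highest H3K64ac fold, so 3.25 holds for both omissions. The same omission gave 1.94 for H3K64ac and 1.36 for H3K27ac in the H19-Igf2 window. Without the island of highest fold, that window stood at 1.89 for H3K122ac and 1.57 for H3K64ac. No paired analysis was possible because the authors merged the replicates before calling, and for the same reason no replicate could be left out. The lists hold no reads outside islands, so an uncalled mark is not an absent one.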
